A study of Mus musculus with 4 samples.

Results

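The nuclear-retained long noncoding RNAs (lncRNAs) described here are 9 of the 18194 genes named on these arrays, Malat1, Miat, Meg3, Neat1, Rian, Mirg, Rmst, Snhg11 and Gt(ROSA)26Sor. They were listed together under that name and chosen by the measured folds of both knockouts over their controls. Those folds are therefore a description of the choice and carry no test. Each was read from every probe set annotated with its symbol alone, 33 of 34958 such probe sets, and its brightest probe set, by mean log2 over the 4 arrays, stood for the RNA. The arrays measured RNA of the whole tissue, so the nuclear location itself was not seen in these data. All 9 passed the minimum mean signal of 50 and none was left out.

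Cerebrum RNA of 4 groups was compared, each as 1 pool of RNA from 5 to 6 cerebrums on 1 array. The 2aECKO pool carried Mfsd2a fl/fl and Tie2-cre at postnatal day 9, and its 2afl/fl control carried Mfsd2a fl/fl without cre at the same age. The 2aiECKO pool carried Mfsd2a fl/fl and Cdh5ERT2-cre at postnatal day 8, and its control, 2afl/fl 4-OHT, carried Mfsd2a fl/fl without cre at that age. Both pools of that pair received 4-OHT (4-hydroxytamoxifen), which switches on the cre. Tie2-cre is active in endothelium and in blood cells, and Cdh5ERT2-cre in endothelium, so Mfsd2a, the transporter that brings DHA as a lysolipid across the blood-brain barrier, was not targeted in neurons or astrocytes. One label of the 2aiECKO sample names it 2aECKO, and its title and genotype, which say 2aiECKO, were followed. With 1 array a group no difference has a replicate check, and no value below carries an error or a p-value.

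Long noncoding RNAs are transcribed and processed like messenger RNAs but encode no known protein. Those that stay in the nucleus can scaffold nuclear bodies. Malat1 is an abundant RNA of nuclear speckles, the stores of splicing factors, and Neat1 is the scaffold on which paraspeckles form. Miat, also called Gomafu, forms separate foci in neurons and binds splicing regulators such as Qk. Meg3, Rian and Mirg are transcribed from the maternal copy of the imprinted Dlk1-Dio3 region, where Rian carries small nucleolar RNAs and Mirg a cluster of microRNAs. Rmst binds the transcription factor Sox2 in human neural cells, Snhg11 is a host gene of a small nucleolar RNA that is abundant in brain, and Gt(ROSA)26Sor is the transcript of the Rosa26 locus, which is active in most mouse tissues.

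In the RefSeq annotation of GRCm38.p6, Meg3 (chr12:109540996-109571729), Rian (chr12:109603945-109661716) and Mirg (chr12:109734981-109749458) lie in this order on the plus strand of chromosome 12, 32.2 kb and 73.3 kb apart. Malat1 (chr19:5795690-5802672) and Neat1 (chr19:5824708-5845480) lie 22.0 kb apart on chromosome 19. The other 4 RNAs lie on separate chromosomes, Miat at chr5:112213228-112228948, Rmst at chr10:92081746-92165178, Snhg11 at chr2:158375713-158386474 and Gt(ROSA)26Sor at chr6:113067428-113077244. So the 9 RNAs include 2 sets of neighbours, and in both sets a neighbour differed in its fold, as the values below show.

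The promoters of Meg3, Rian, Mirg and Malat1 are printed because the first 3 are neighbours on the chromosome with unlike folds and Malat1 was higher in 2aECKO at every probe set. Each runs 5′ to 3′ on the strand of its gene, over 250 bases before to 50 bases after the RefSeq start. Capitals mark matches to a motif on either strand. The TATA box was searched as TATAAA. The CCAAT box was searched by the letters of its name. The GC box was searched as GGGCGG. The cAMP response element was searched as TGACGTCA. The E-box was searched as CACGTG.
Meg3 promoter, chr12:109540746-109541045, plus strand, GRCm38.p6: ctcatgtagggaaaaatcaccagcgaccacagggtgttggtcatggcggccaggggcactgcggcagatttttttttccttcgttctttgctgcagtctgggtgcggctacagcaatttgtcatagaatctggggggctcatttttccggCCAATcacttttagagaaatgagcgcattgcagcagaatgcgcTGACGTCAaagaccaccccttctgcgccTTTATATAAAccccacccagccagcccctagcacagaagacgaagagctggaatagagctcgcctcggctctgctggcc
Rian promoter, chr12:109603695-109603994, plus strand, GRCm38.p6: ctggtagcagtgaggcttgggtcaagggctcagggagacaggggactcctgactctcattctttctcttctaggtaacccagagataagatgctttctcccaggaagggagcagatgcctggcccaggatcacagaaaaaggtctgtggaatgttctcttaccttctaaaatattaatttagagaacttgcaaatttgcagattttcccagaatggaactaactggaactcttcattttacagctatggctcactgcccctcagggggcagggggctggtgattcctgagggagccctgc
Mirg promoter, chr12:109734731-109735030, plus strand, GRCm38.p6: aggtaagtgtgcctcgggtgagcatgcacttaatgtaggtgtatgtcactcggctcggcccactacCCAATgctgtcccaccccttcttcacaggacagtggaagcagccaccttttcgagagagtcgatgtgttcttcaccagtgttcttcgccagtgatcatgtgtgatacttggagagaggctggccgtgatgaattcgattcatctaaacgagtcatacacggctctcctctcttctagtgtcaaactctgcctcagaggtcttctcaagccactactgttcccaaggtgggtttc
Malat1 promoter, chr19:5802623-5802922, minus strand, GRCm38.p6: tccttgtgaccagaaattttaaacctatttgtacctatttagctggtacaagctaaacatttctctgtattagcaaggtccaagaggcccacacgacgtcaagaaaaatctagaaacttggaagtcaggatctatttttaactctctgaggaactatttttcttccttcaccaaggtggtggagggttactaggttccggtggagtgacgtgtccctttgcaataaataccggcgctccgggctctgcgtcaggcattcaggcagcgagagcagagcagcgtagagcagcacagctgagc

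The Meg3 window held 1 CCAAT box, 1 cAMP response element and 2 TATA box matches that overlap on opposite strands. Among all 32851 promoter windows in the RefSeq table, the TATA box was present in 13.6 percent, the CCAAT box in 37.4 percent, the cAMP response element in 1.79 percent, the GC box in 35.7 percent and the E-box in 7.15 percent. The Rian window held none of these motifs and 0 CpG, the Mirg window 1 CCAAT box and 10 CpG, and the Malat1 window none of the motifs and 10 CpG, against a median of 7 CpG over all windows. Of the other lncRNAs, Miat had 1 GC box and 25 CpG and Snhg11 none of the motifs and 21 CpG. Promoter entries were found for 6 of the 9 RNAs, among them a second Meg3 start at chr12:109545148-109545447 with none of the motifs and 1 CpG, and Neat1, Rmst and Gt(ROSA)26Sor were not matched. A match is one of letters, and says nothing of whether a factor binds there.

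Rian, Mirg, Meg3 and Rmst also span microRNA hairpins, which these arrays were not used to measure. Within Meg3 the RefSeq table places 1 hairpin and 3 mature microRNAs, within Rian 3 and 6, within Mirg 10 and 19, and within Rmst 1 and 2. One microRNA of each host is printed, followed by the pair in Mirg that shares a seed, to show which sequences these host RNAs carry. Capitals mark the seed, bases 2 to 8, and the sequences are those of RefSeq.
mmu-miR-770-3p, in Meg3: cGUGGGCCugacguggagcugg
mmu-miR-370-3p, in Rian: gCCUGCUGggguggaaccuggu
mmu-miR-410-3p, in Mirg: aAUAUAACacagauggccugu
mmu-miR-1251-5p, in Rmst: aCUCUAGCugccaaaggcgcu
mmu-miR-453, in Mirg: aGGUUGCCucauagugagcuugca
mmu-miR-496a-5p, in Mirg: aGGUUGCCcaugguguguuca

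The values are linear RMA signals. The median signal of all 45101 probe sets was 75.5 in 2aECKO and 74.1 in 2afl/fl, against 49.2 in 2aiECKO and 48.7 in 2afl/fl 4-OHT, so the pairs are not on 1 scale and each fold was taken inside its own pair. Over the 12426 genes of mean signal 50 or more, the log2 folds of single genes had a robust SD (scaled median absolute deviation) of 0.12 in 2aECKO and 0.10 in 2aiECKO. Mfsd2a itself had a signal of 410 in 2aECKO and 423 in 2afl/fl, and of 299 in 2aiECKO and 369 in 2afl/fl 4-OHT. Whether its probe set reads the deleted exons is not known here, so the gene does not check the labels. Xist and Y-linked genes differed between the pairs, whose sex makeup, age, 4-OHT treatment and array processing cannot be told apart.

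In 2aECKO, 6 of the 9 lncRNAs were higher than in 2afl/fl, namely Rmst, Gt(ROSA)26Sor, Miat, Malat1, Meg3 and Snhg11. Higher means a knockout signal of 50 or more together with a log2 fold of 0.32 or more, and by this size rule 2.04 percent of all 12426 genes were higher. The fold in this comparison helped choose the RNAs, so the count is read as a description. None of the 9 was lower by the mirror rule, a control signal of 50 or more together with a log2 fold of -0.32 or less, which 1.44 percent of genes met. Neat1, Rian and Mirg were neither higher nor lower. The log2 fold was above 0 in 7 of 9, against 46.3 percent of all genes, and its median was 0.46, against -0.01 over all genes.

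In 2aiECKO, 1 of the 9 was higher than in 2afl/fl 4-OHT, Gt(ROSA)26Sor, against 1.77 percent of all genes. None was lower, against 0.523 percent of genes. The log2 fold was again above 0 in 7 of 9, here in all but Rian and Mirg, against 46.4 percent of genes. The median of the 9 was 0.19, against -0.00 over all genes. So Malat1, Miat, Meg3, Rmst and Snhg11, which passed the size rule in 2aECKO, did not pass it at their brightest probe sets in 2aiECKO. The direction turned with the control: against 2afl/fl, after quantile normalization, the median in 2aiECKO was -0.029, and Malat1 at -1.01 and Meg3 at -0.50 were lower.

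**Figure D1:**
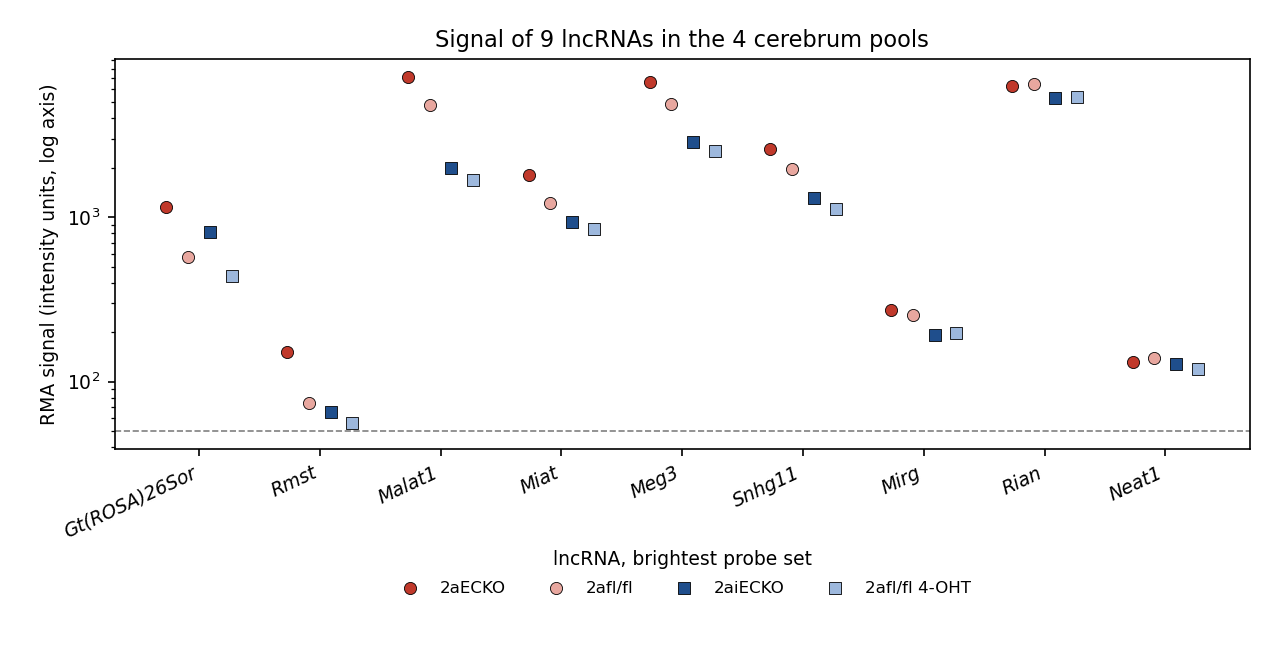
RMA signal (vertical log axis, intensity units) of the brightest probe set of each lncRNA in the 4 pools, 1 point per pool, with circles for 2aECKO and 2afl/fl, squares for 2aiECKO and 2afl/fl 4-OHT, and a dashed line at a signal of 50. The 2aECKO point lies above its control for 7 of 9 RNAs, while Rian and Neat1 lie just below theirs.

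Gt(ROSA)26Sor was the only lncRNA higher in both knockouts. Its single probe set gave a signal of 1155 in 2aECKO and 576 in 2afl/fl, and of 808 in 2aiECKO and 439.95 in 2afl/fl 4-OHT. Both knockout pools were above both controls, with log2 folds of 1.0 in 2aECKO and of 0.88 in 2aiECKO. These were the third and the fifth highest folds among all genes, ranks 3 and 5 of 12426. No coding gene next to it passed the size rule. Thumpd3, which overlaps it and encodes a protein that methylates transfer RNA in human cells, had signals of 426 in 2aECKO and 420.36 in 2afl/fl, and of 358 in 2aiECKO and 353 in 2afl/fl 4-OHT. Setd5, a SET-domain gene annotated 18 bases away, had 741 and 736 in the first pair and 489 and 495 in the second, knockout before control. The log2 folds of both lay between -0.02 and 0.02. Srgap3, the nearest measured gene on the other side, had 0.13 in 2aECKO and -0.03 in 2aiECKO.

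Rmst had the second highest fold of all genes in 2aECKO. At its brightest probe set the signal was 152 in 2aECKO and 74.5 in 2afl/fl, a log2 fold of 1.03 (rank 2), and 65.6 in 2aiECKO and 56.1 in 2afl/fl 4-OHT, a log2 fold of 0.23 (rank 560). The deposited signals of the other 3 pools were not far above the minimum signal of 50. After quantile normalization over the 4 arrays the signals were 129.7 in 2aECKO, 62.2 in 2afl/fl, 81.1 in 2aiECKO and 70.3 in 2afl/fl 4-OHT. A second probe set did not show the difference in 2aECKO, with signals of 21.3 in 2aECKO and 22.6 in 2afl/fl, a log2 fold of -0.08, and of 14.6 in 2aiECKO and 12.1 in 2afl/fl 4-OHT, a log2 fold of 0.27. All of its signals were below 50, so the 2 probe sets of Rmst disagree in 2aECKO and only one of them was bright enough for the size rule. The nearest measured genes of Rmst are distant, Tmpo at 0.24 and 0.17 and Nedd1 at 0.00 and 0.21 in log2 fold, 2aECKO first.

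Malat1 was higher in 2aECKO at every probe set. The brightest one gave 7114 in 2aECKO and 4844 in 2afl/fl, a log2 fold of 0.55 (rank 43), and 1992 in 2aiECKO and 1676 in 2afl/fl 4-OHT, a log2 fold of 0.25 (rank 446). In falling brightness the other 6 Malat1 probe sets gave 3357, 1921, 1054, 817, 636 and 371 in 2aECKO, against 2154, 1002, 793, 585, 344 and 289 in 2afl/fl, with log2 folds of 0.64, 0.94, 0.41, 0.48, 0.89 and 0.36. In the same order they gave 809, 571, 231, 280.4, 144 and 82.4 in 2aiECKO, against 674, 453, 196, 231, 92.3 and 63.8 in 2afl/fl 4-OHT, with log2 folds of 0.26, 0.34, 0.24, 0.28, 0.64 and 0.37. At each of the 7 the knockout signal was above its control in both pairs. Over its 7 probe sets, whose signals in 2aECKO run between 371 and 7114, the log2 fold in 2aECKO ranged from 0.36 to 0.94 with a median of 0.55 (SD 0.23 over probe sets), and all 7 passed the size rule. In 2aiECKO all 7 were above 0, from 0.24 to 0.64 with a median of 0.28 (SD 0.14), and 3 of them passed. The largest fold in 2aiECKO came from a probe set with signals of 143.5 in 2aiECKO and 92.3 in 2afl/fl 4-OHT, whose 2aECKO signals were 636 against 344 in 2afl/fl. With the mean of all probe sets in place of the brightest, Malat1 was counted higher in 2aiECKO as well. The probe sets of 1 RNA share the same pools, so their spread is that of the probes and not of animals.

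Neat1, the neighbour of Malat1, was not higher in 2aECKO. Its brightest probe set gave 132 in 2aECKO and 139.6 in 2afl/fl, a log2 fold of -0.08, and 128 in 2aiECKO and 119 in 2afl/fl 4-OHT, a log2 fold of 0.10. The second, with 107 in 2aECKO and 92.5 in 2afl/fl, had a log2 fold of 0.21, and with 66.0 in 2aiECKO and 51.2 in 2afl/fl 4-OHT a log2 fold of 0.37, which passed the size rule. So the 2 probe sets of Neat1 had log2 folds of opposite sign in 2aECKO, neither past the size rule, and at both the fold in 2aiECKO was above that in 2aECKO. Beyond the pair of RNAs, Ltbp3, which encodes a binding protein of latent TGF-beta, stood at 0.14 in 2aECKO and 0.21 in 2aiECKO on the log2 scale, and Frmd8 at 0.16 and 0.07.

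Miat was higher in 2aECKO at 1 of its 2 probe sets. The brighter gave 1809 in 2aECKO and 1216 in 2afl/fl, a log2 fold of 0.57 (rank 36), and 941 in 2aiECKO and 843 in 2afl/fl 4-OHT, a log2 fold of 0.16 (rank 1111). The dimmer gave 102 in 2aECKO and 96.0 in 2afl/fl, a log2 fold of 0.09, and 52.1 in 2aiECKO and 54.2 in 2afl/fl 4-OHT, a log2 fold of -0.06. The fold of Miat therefore rests on the brighter probe set. Of its nearest genes, Mn1 had log2 folds of 0.00 and -0.13, 2aECKO first. Crybb1, a lens crystallin, had -0.05 and -0.36. It was lower in 2aiECKO by the size rule, with 133 against 171 in 2afl/fl 4-OHT.

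The 3 lncRNAs of the Dlk1-Dio3 region did not move together in 2aECKO. Meg3 had a signal of 6682 in 2aECKO and 4859 in 2afl/fl at its brightest probe set, a log2 fold of 0.46 (rank 83), and of 2869 in 2aiECKO and 2523 in 2afl/fl 4-OHT, a log2 fold of 0.19 (rank 861). In falling brightness the other 10 Meg3 probe sets gave 5217, 4281, 4223, 3059, 2326, 2516, 3336, 3082, 1349 and 786 in 2aECKO, against 4210.0, 3011, 3309, 2439, 1618, 1740.0, 2205, 2451, 936 and 591 in 2afl/fl, with log2 folds of 0.31, 0.51, 0.35, 0.33, 0.52, 0.53, 0.60, 0.33, 0.53 and 0.41. In the same order they gave 2667, 1729, 1614, 1237, 1229.6, 1113, 821, 729, 429 and 371 in 2aiECKO, against 2558, 1567, 1546, 1226, 1122, 1031, 818, 713, 426 and 324 in 2afl/fl 4-OHT, with log2 folds of 0.06, 0.14, 0.06, 0.01, 0.13, 0.11, 0.00, 0.03, 0.01 and 0.20. All 11 Meg3 probe sets were above 0 in 2aECKO, from 0.31 to 0.60 (SD 0.10 over probe sets), and 10 passed the size rule. In 2aiECKO all 11 were above 0 as well, from 0.00 to 0.20 (SD 0.07), and none passed. Of the 3 RNAs with 4 or more probe sets, Malat1, Meg3 and Rian, Meg3 thus had the smallest spread in 2aECKO, and its fold in 2aECKO was above that in 2aiECKO at each of them.

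Rian passed the size rule at none of its 4 probe sets in either pair. Its brightest probe set gave 6303 in 2aECKO and 6450.1 in 2afl/fl, a log2 fold of -0.03, and 5318 in 2aiECKO and 5387 in 2afl/fl 4-OHT, a log2 fold of -0.02. The second brightest gave 4509 in 2aECKO and 4582 in 2afl/fl, and 4191 in 2aiECKO and 4288 in 2afl/fl 4-OHT. So the 2 bright probe sets of Rian had log2 folds between -0.03 and -0.02 in both pairs. The 2 dimmer ones were above 0 in 2aECKO, with 266 against 213 in 2afl/fl (log2 fold 0.32, just under the size rule) and with 132 against 117 (log2 fold 0.17). In 2aiECKO they had log2 folds of 0.00 and -0.14, at signals of 81.1 against 81.1 and 35.5 against 39.0 in 2afl/fl 4-OHT. The dim and the bright probe sets of Rian thus disagree in 2aECKO, and which transcripts each reads was not examined here.

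Mirg, the last of the 3 along the chromosome, had a signal of 272 in 2aECKO and 254 in 2afl/fl, a log2 fold of 0.09, and of 192 in 2aiECKO and 198 in 2afl/fl 4-OHT, a log2 fold of -0.04. Its second probe set gave 115 in 2aECKO and 107 in 2afl/fl, a log2 fold of 0.10, and 50.6 in 2aiECKO and 52.6 in 2afl/fl 4-OHT, a log2 fold of -0.06. Both probe sets of Mirg were therefore slightly above their control in 2aECKO and slightly below it in 2aiECKO, by less than the robust SD of single genes. Dlk1, the paternally expressed coding gene on the other side of Meg3, encodes a transmembrane inhibitor of adipocyte differentiation and had a signal of 107 in 2aECKO and 75.9 in 2afl/fl, a log2 fold of 0.50, and of 68.3 in 2aiECKO and 64.1 in 2afl/fl 4-OHT, a log2 fold of 0.09. Of the 7 listed genes of the region 4 were measured. Dlk1 and Meg3 were higher in 2aECKO, against 2.04 percent of all genes. None was higher or lower in 2aiECKO, against 1.77 and 0.523 percent of all genes. Meg3, Rian and Mirg were among the RNAs chosen by these folds, so the count is a description.

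Snhg11 had a signal of 2610.4 in 2aECKO and 1959 in 2afl/fl at its brighter probe set, a log2 fold of 0.41 (rank 121), and of 1315 in 2aiECKO and 1116 in 2afl/fl 4-OHT, a log2 fold of 0.24 (rank 514). The other probe set gave 1651 in 2aECKO and 1351 in 2afl/fl, a log2 fold of 0.29, and 575 in 2aiECKO and 542 in 2afl/fl 4-OHT, a log2 fold of 0.09. Both probe sets of Snhg11 were above their controls in both pairs, and 1 passed the size rule, in 2aECKO. Its neighbours Snhg17, another snoRNA host, and Ralgapb, a regulator of Ral GTPases, had log2 folds between -0.04 and 0.11.

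Over all 33 probe sets, 21 were higher in 2aECKO, against 2.62 percent of the 21585 probe sets with a mean signal of at least 50. In 2aiECKO 5 were higher, against 1.73 percent. The log2 fold was above 0 at 29 in 2aECKO and at 26 in 2aiECKO. No share above 0 was computed over all probe sets, and over genes it was 46.3 and 46.4 percent. The 33 include the second Rmst probe set, whose signals were all below 50. Of the 21 in 2aECKO, 17 belong to Malat1 and Meg3, and probe sets of 1 RNA are not separate RNAs. The 5 in 2aiECKO were 3 of Malat1, 1 of Neat1 and the single one of Gt(ROSA)26Sor.

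**Figure D2:**
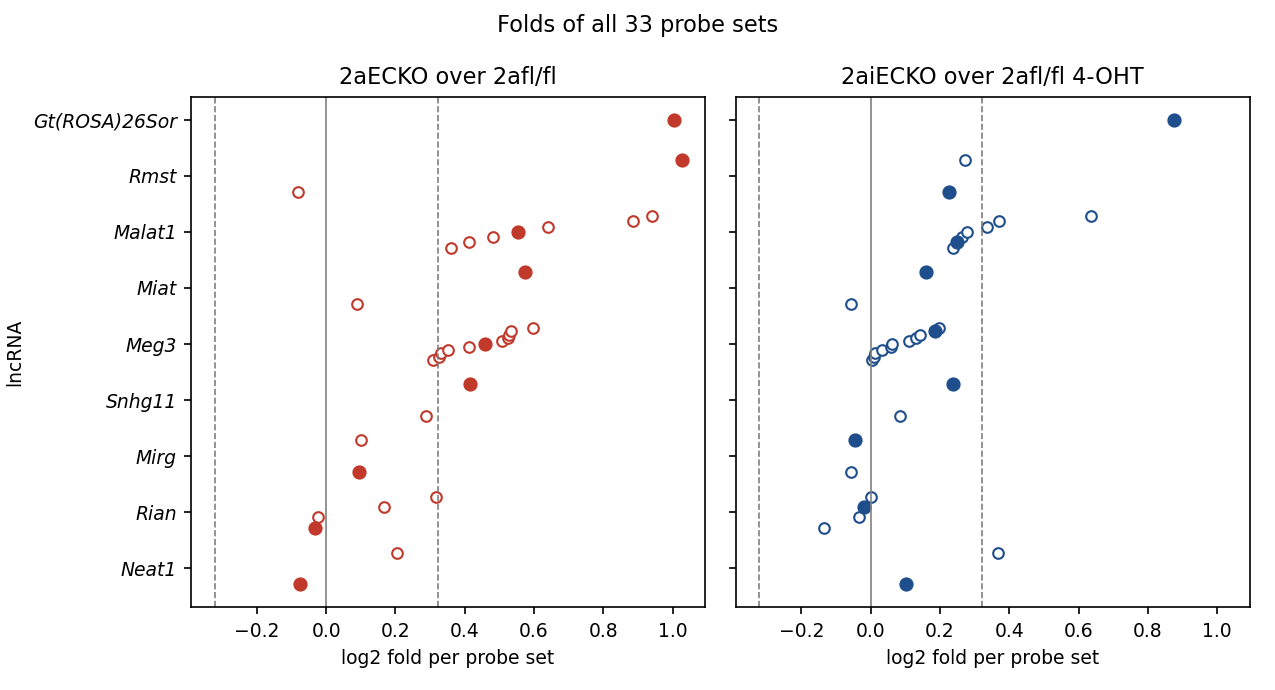
Log2 fold (horizontal axis) of each of the 33 probe sets, by lncRNA, in 2aECKO over 2afl/fl (left) and in 2aiECKO over 2afl/fl 4-OHT (right). Filled points are the brightest probe set of each RNA, and dashed lines mark log2 folds of 0.32 and -0.32. All 7 Malat1 and 10 of 11 Meg3 points lie beyond the line in 2aECKO, against 3 and 0 in 2aiECKO.

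Set side by side, the log2 fold was larger in 2aECKO than in 2aiECKO for 7 of the 9 RNAs. The gap was widest for Rmst, at 0.80, followed by Miat at 0.42, Malat1 at 0.31, Meg3 at 0.27, Snhg11 at 0.18, Mirg at 0.14 and Gt(ROSA)26Sor at 0.13. It ran the other way for Neat1, at -0.18, and was -0.01 for Rian. The 2 comparisons use separate knockout and control pools. The gap goes with cre line, age, 4-OHT, sex makeup and array processing, which cannot be told apart. With 1 array per pool the gap was not tested.

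**Figure D3:**
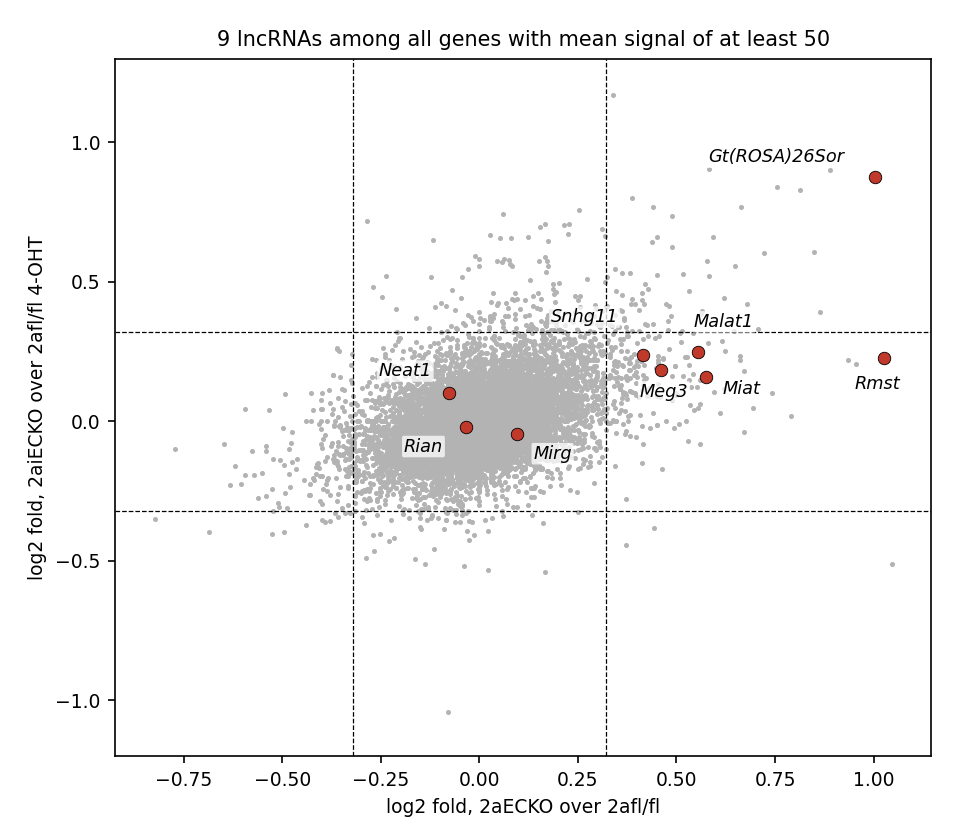
Log2 fold in 2aECKO over 2afl/fl (horizontal axis) against 2aiECKO over 2afl/fl 4-OHT (vertical axis) for the 12426 genes of mean signal 50 or more, with the 9 lncRNAs in red and dashed lines at log2 folds of 0.32 and -0.32. Gt(ROSA)26Sor lies in the upper right corner, Rmst far to the right, Malat1, Miat, Meg3 and Snhg11 to the right of the vertical line and below the upper one, and Neat1, Rian and Mirg within the cloud. One gene, Cryaa, lies below the plotted range at -2.45 on the vertical axis.

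The 2 control pools, neither of which carries a cre, differed from each other in some of these RNAs by more than the knockouts did. This difference was not used to choose the RNAs, but each control is also the base of a knockout fold, so it is not separate from those folds. After quantile normalization over the 4 arrays, Malat1 had a signal of 1872 in 2afl/fl 4-OHT and 4437 in 2afl/fl, a log2 difference of -1.24, which was the eighth lowest of all genes (rank 8). In the same values the knockout pools had 6523 in 2aECKO and 2207 in 2aiECKO, so both pools of the 2aECKO pair were above both pools of the 2aiECKO pair. Meg3 had a log2 difference of -0.68 between the controls, 2afl/fl 4-OHT over 2afl/fl, and Snhg11 of -0.52. At the brightest probe sets these 3 were lower in 2afl/fl 4-OHT by the size rule, against 7.86 percent of genes, and none of the 9 was higher, against 14.5 percent.

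The log2 difference, 2afl/fl 4-OHT over 2afl/fl, was below 0 at all 7 Malat1 probe sets, from -1.69 to -0.85. It was also below 0 at all 11 Meg3 probe sets, from -1.49 to -0.24, of which -0.24 falls short of the size rule. Over all genes it was above 0 in 7454 of 12426. The 2 bright Rian probe sets had differences of 0.00 and 0.16 between the controls, and the 2 dim ones -0.92 and -1.01. The brighter Mirg probe set had 0.02 and the dimmer -0.45, so the probe sets of both RNAs disagree here. At their brightest probe sets Miat had -0.25, Neat1 0.25, Rmst 0.18 and Gt(ROSA)26Sor -0.08. Over all genes the median was 0.06 and the robust SD 0.24. The second probe sets had -0.25 for Miat, -0.27 for Neat1, -0.19 for Rmst and -1.02 for Snhg11, so the sign turned for Neat1 and Rmst. At the brightest probe sets the size of the control difference exceeded that of the 2aECKO fold for 4 RNAs, Malat1, Meg3, Neat1 and Snhg11. It exceeded that of the 2aiECKO fold for these 4 and Miat. For Gt(ROSA)26Sor and Rmst it was smaller than the 2aECKO fold. The control pools differ in age and 4-OHT treatment. Their sex-linked genes differ, with log2 differences of -0.88 for Xist and 1.84 for the Y-linked gene Eif2s3y. Their deposited values were also not on 1 scale, with median signals of 74.1 in 2afl/fl and 48.7 in 2afl/fl 4-OHT. Age, 4-OHT, sex makeup and array processing cannot be told apart.

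**Figure D4:**
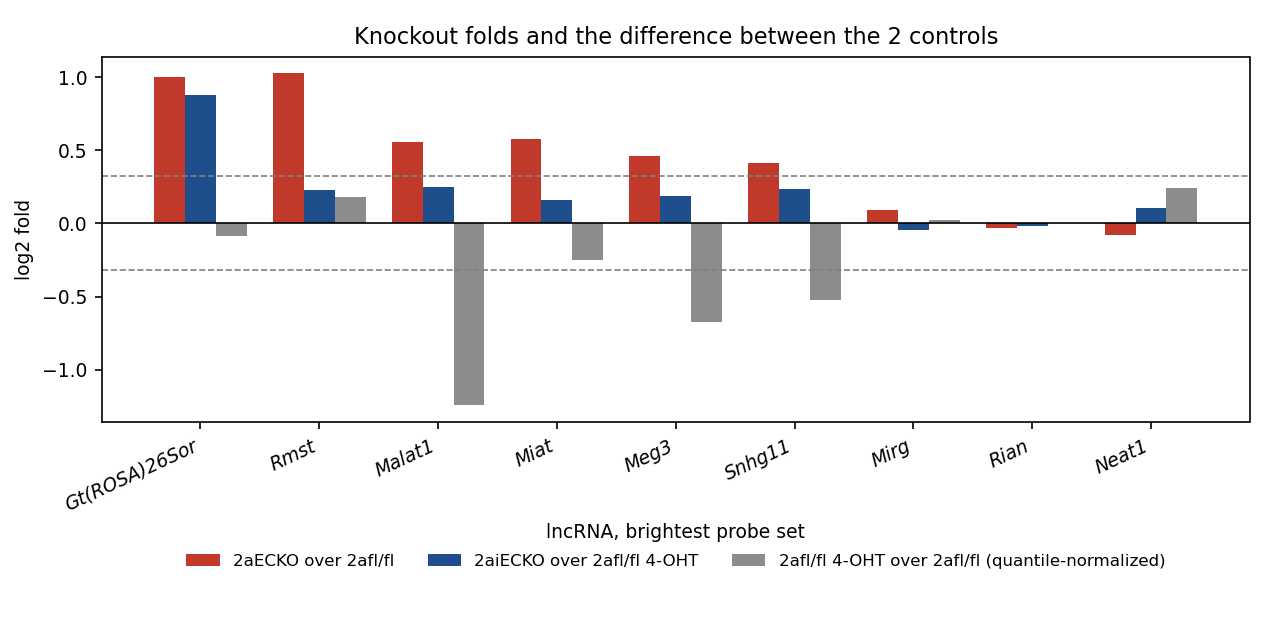
Log2 fold (vertical axis) at the brightest probe set of each lncRNA in 2aECKO over 2afl/fl (red), in 2aiECKO over 2afl/fl 4-OHT (blue) and in 2afl/fl 4-OHT over 2afl/fl after quantile normalization (grey), with dashed lines at log2 folds of 0.32 and -0.32. The grey bar of Malat1 reaches -1.24, beyond its knockout bars, while that of Gt(ROSA)26Sor is -0.08 beside bars of 1.0 and 0.88.

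Most other long noncoding RNAs, like most genes, did not pass the size rule. Of 20 listed lncRNAs with sufficient signal, among 34 listed, 1 was higher in 2aECKO and 2 were lower, with a median log2 fold of -0.01. Over all genes 2.04 percent were higher and 1.44 percent lower. In 2aiECKO none of the 20 was higher or lower, against 1.77 and 0.523 percent of all genes. The higher one was Kcnq1ot1, the imprinted antisense RNA of the Kcnq1 locus, with 193 in 2aECKO and 139.6 in 2afl/fl, a log2 fold of 0.47, and 100.1 in 2aiECKO and 85.7 in 2afl/fl 4-OHT, a log2 fold of 0.22. The lower ones were Pvt1, next to Myc, at -0.40, and A330008L17Rik at -0.32. Of 17 snoRNA host genes of sufficient signal, Snhg11 was the 1 that was higher in 2aECKO (5.88 percent, against 2.04 percent of all genes). Snhg1 was the 1 that was higher in 2aiECKO (5.88 percent, against 1.77 percent), with 439 in 2aiECKO and 339 in 2afl/fl 4-OHT, a log2 fold of 0.37. Gas5, a host gene whose RNA binds the glucocorticoid receptor in human cells, had log2 folds of 0.16 and 0.12, 2aECKO first. Over the 309 genes of sufficient signal that RefSeq calls lncRNA, without the 9, 11 were higher in 2aECKO (3.56 percent, against 2.04 percent of all genes) and 10 lower, and 11 were higher in 2aiECKO (3.56 percent, against 1.77 percent of all genes) and 4 lower. The median log2 fold of these 309 was -0.03 in 2aECKO and 0.00 in 2aiECKO, and this group was added with the values known.

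Like most genes, genes of nuclear speckles (Malat1) and paraspeckles (Neat1) mostly did not pass the size rule. Over all genes 2.04 percent were higher, 1.44 percent lower and 46.3 percent above 0 in 2aECKO. In 2aiECKO 1.77 percent were higher, 0.523 percent lower and 46.4 percent above 0. Of 21 nuclear speckle proteins none was higher or lower in either pair, but 20 were above 0 in 2aECKO, with a median log2 fold of 0.14, and 16 in 2aiECKO, with a median of 0.07. The largest was Pnn, a speckle protein of splicing complexes, with 893 in 2aECKO and 725 in 2afl/fl, a log2 fold of 0.30, and the exception was Sf3b2 at -0.06. The speckle scaffolds Son and Srrm2 had 0.23 and 0.19 in 2aECKO and -0.04 and -0.14 in 2aiECKO. Of 19 paraspeckle proteins 18 were above 0 in 2aECKO, with a median of 0.06, and the RNA-binding proteins Taf15 and Hnrnpa1 were higher, each at 0.32. In 2aiECKO Taf15 was the 1 that was higher, with 59.7 against 41.8 in 2afl/fl 4-OHT, a log2 fold of 0.52. The core paraspeckle proteins Nono, Sfpq and Pspc1 were at 0.06, 0.04 and -0.02 in 2aECKO, and at -0.05, 0.05 and 0.05 in 2aiECKO, in log2 fold.

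Of 12 genes that encode protein partners of these RNAs, Sox2 was higher in 2aECKO, with 1167 in 2aECKO and 919 in 2afl/fl, a log2 fold of 0.34, against 0.27 in 2aiECKO. Qk, the splicing regulator that binds Miat, was higher in 2aiECKO, with 2564 in 2aiECKO and 2046 in 2afl/fl 4-OHT, a log2 fold of 0.33, against 0.07 in 2aECKO. Ezh2, the methyltransferase of Polycomb repressive complex, had 0.27 and 0.16. Over all genes 2.04 percent were higher in 2aECKO and 1.77 percent in 2aiECKO. Of 14 genes of nuclear RNA decay and microRNA processing none was higher or lower, with medians of 0.05 in 2aECKO and 0.00 in 2aiECKO, Drosha at 0.20 in 2aECKO and Rbm7 at 0.28 in 2aiECKO being the largest. Of 11 housekeeping genes none passed in 2aECKO, with a median of -0.03, and B2m and Gusb were higher in 2aiECKO at 0.40 and 0.46. The listed genes encoded by mitochondria were not measured by a probe set with 1 symbol.

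Markers of cell types moved beside these RNAs in part. In bulk tissue fewer cells of a type and less RNA per cell cannot be told apart. The counts in this and the next paragraph stand beside these shares over all 12426 genes. In 2aECKO 2.04 percent were higher, 1.44 percent lower and 46.3 percent above 0. In 2aiECKO 1.77 percent were higher, 0.523 percent lower and 46.4 percent above 0. Of 10 neuron markers 1 was lower in 2aECKO, the glutamate transporter Slc17a7 at -0.39, and none passed the size rule in 2aiECKO, with 2 of 10 above 0 in 2aECKO (median -0.09, summed signal 52398 against 54932 in 2afl/fl) and 0 of 10 in 2aiECKO (median -0.05, summed signal 42082 against 43757 in 2afl/fl 4-OHT). Astrocyte markers were above 0 in 8 of 9 in 2aECKO (median 0.21, summed signal 28273 against 25079) and in 9 of 9 in 2aiECKO (median 0.27, summed signal 20978 against 17554), and Gfap was higher in both, at 0.89 and 0.90, and S100b and Gja1 in 2aiECKO, each at 0.35. Of 8 microglia markers 6 were higher in 2aiECKO (median 0.44, summed signal 5134 against 3587), Tyrobp at 0.76, C1qa at 0.69, C1qb at 0.67, Aif1 at 0.45, Csf1r at 0.44 and Cx3cr1 at 0.36. In 2aECKO none of the 8 was higher (median 0.05, summed signal 4251 against 4037), and P2ry12 at -0.36 and Tmem119 at -0.46 were lower.

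Endothelial markers, of the cells in which Mfsd2a is deleted, had medians of 0.04 in 2aECKO (summed signal 2488 against 2442 in 2afl/fl) and -0.09 in 2aiECKO (1801 against 1896 in 2afl/fl 4-OHT), with none of 8 higher or lower in either. Progenitor markers had 2 of 6 higher in 2aECKO, Sox2 at 0.34 and Pax6 at 0.40, and none in 2aiECKO. Oligodendrocyte precursor markers had medians of -0.01 and 0.01, 2aECKO first, and choroid plexus markers, 4 of 4 above 0 in both pairs, had medians of 0.24 and 0.23 (summed signals of 14874 against 12888 in 2afl/fl and of 11983 against 10630 in 2afl/fl 4-OHT). Otx2, a transcription factor of that tissue, was higher in both knockouts, at 0.65 in 2aECKO and 0.56 in 2aiECKO. Oligodendrocyte markers had a median of 0.00 in 2aECKO, where Mobp was lower at -0.34 (summed signal 9948 against 9329). In 2aiECKO their median was 0.28, and Mbp was higher at 0.42 (summed signal 6825 against 5362). Between the controls, 2afl/fl 4-OHT over 2afl/fl, their median was -0.78 and 4 of 5 were lower, against 7.86 percent of all genes. By the same rule 3 of 10 neuron, 3 of 9 astrocyte and 2 of 5 oligodendrocyte precursor markers were lower there. So were 1 of 8 endothelial and 1 of 6 progenitor markers, and no microglia or choroid plexus marker. In the other direction 2 of 4 choroid plexus, 1 of 8 microglia and 1 of 6 progenitor markers were higher, against 14.5 percent of all genes. No neuron, astrocyte, oligodendrocyte, oligodendrocyte precursor or endothelial marker was higher there. Alas2 was the only red cell marker of sufficient signal. Its log2 fold over 2afl/fl was 1.05, from 119.6 in 2aECKO against 57.9. Over 2afl/fl 4-OHT its fold of -0.51 rests on signals below 50, with 25.8 for 2aiECKO against 36.8. Hba-a1 and Slc4a1, also red cell markers, stayed under 50 on every array. Hba-a1 had log2 folds of -0.09 and -0.10, 2aECKO first, while Slc4a1 had -0.10 and -0.09. The part of these cells in the lncRNA values was not tested.

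Control probe sets for the 3′ and 5′ ends of a transcript give a reading of RNA integrity and labelling. The log2 difference between the 3′ and the 5′ set was 0.37 in 2aECKO and 0.36 in 2afl/fl for actin, and 0.28 in 2aiECKO and 0.27 in 2afl/fl 4-OHT. For Gapdh it was -0.17 in 2aECKO and -0.13 in 2afl/fl, and -0.28 in 2aiECKO and -0.26 in 2afl/fl 4-OHT. Within a pair these differed by at most 0.03. For pyruvate carboxylase the values were 2.34 in 2aECKO and 2.61 in 2afl/fl, and 2.63 in 2aiECKO and 2.67 in 2afl/fl 4-OHT, and for the transferrin receptor 2.39 and 2.17, and 2.33 and 2.36. The longer controls moved in opposite directions in the 2aECKO pair, by -0.26 and 0.22, and their part in the lncRNA values was not tested.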

How the data were processed

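Cerebrum RNA of 4 pools was measured on Affymetrix Mouse 430 2.0 arrays, 1 array per pool. The authors deposited linear intensity values from RMA, which adjusts for background and normalizes arrays by quantiles. The affy package is named in the methods and Partek 6.6 in the submitters' processing notes.

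These intensity values were taken to log2. The platform annotation gives 1 gene symbol to 34958 of the 45101 probe sets and several to 932, and 9211 are unnamed here. Symbols were updated through RefSeq (GRCm38.p6), which also gave positions and sequences. A gene was represented by its probe set of highest mean log2 signal. Log2 folds were knockout minus its own control. Higher meant a knockout signal of 50 or more with a log2 fold of 0.32 or more, and lower a control signal of 50 or more with a log2 fold of -0.32 or less. The controls were compared after quantile normalization over all 4 arrays.

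The 9 members and all gene lists were chosen with earlier results of these data known. Named were all members, and list genes of mean signal 50 or more past the size rule, with others, such as Gas5, Ezh2, Son, Srrm2 and the genes beside each member, named for their role or place. With 1 pool a group there was no test. The fold computation was tested on simulated data. Alternatives tried were the mean of all probe sets, specific probe sets only, other normalizations, other controls, a minimum signal of 100 or none, and a fold of 1.5. Python 3.11.15 was used with numpy 2.4.6, pandas 2.3.3, statsmodels 0.14.6 and matplotlib 3.10.9. Signals reached 50 at 59.35 percent of probe sets in 2aECKO, 59.1 percent in 2afl/fl, 49.7 percent in 2aiECKO and 49.55 percent in 2afl/fl 4-OHT. Precision is limited by the number of arrays.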

Additional observations from a re-analysis of the deposited data

Results flagged for a closer look

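Neat1 and Mirg had log2 folds of opposite sign in the 2 knockouts. Neat1 had -0.08 in 2aECKO and 0.10 in 2aiECKO, a difference of -0.18, and its second probe set was above 0 in both, at 0.21 and 0.37. Mirg had 0.09 in 2aECKO and -0.04 in 2aiECKO, a difference of 0.14, and its second probe set had the same signs, at 0.10 and -0.06. All of the folds at the brightest probe sets were under 0.32 in size on the log2 scale. With 1 pool a group the differences were not tested.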

How the results depend on the processing

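In 2aECKO the count of higher lncRNAs was 6 under each alternative except a fold of 1.5, which left 2 (Rmst and Gt(ROSA)26Sor), and the 6 were the same RNAs under the others. In 2aiECKO Gt(ROSA)26Sor was higher under every alternative. There the count of higher lncRNAs was 2 with the mean of all probe sets, which added Malat1, and 3 with the other control, which added Neat1 and Rmst. With the other control after quantile normalization, 1 lncRNA was lower in 2aECKO (Neat1) and 2 were lower in 2aiECKO (Malat1 and Meg3), and with the mean of both controls 1 was lower in 2aiECKO (Malat1). The median log2 fold of the 9 was then 0.88 and 0.70 in 2aECKO, other control first, and reversed to -0.029 and -0.019 in 2aiECKO. By construction these settings carry the control difference into the folds. The count that differed between the controls, 3, was 3 with median centring and 4 with the mean of all probe sets, which added Rian. For single lncRNAs, 97 of the values under alternatives stayed within the robust SD of single genes, 29 moved by more, and 0 reversed from a fold past the size rule. That last count leaves out folds under the size rule, some of which changed sign. With the other control, Malat1 went from 0.25 to -1.01 and Meg3 from 0.19 to -0.50 in 2aiECKO. Snhg11 went from 0.24 to -0.28 there, and Miat from 0.16 to -0.08. With the mean of all probe sets, Neat1 went from -0.08 to 0.065 and Rian from -0.03 to 0.11 in 2aECKO. No paired analysis was possible because each group has 1 pool. Leaving out a replicate was not possible for the same reason, and the number of arrays limits every value.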
